A study of Homo sapiens with 6 samples.

Results

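The genes described here are 50 genes of DNA replication and S phase, chosen by symbol, of 43317 gene names on the array. They cover the licensing of replication origins, the replicative helicase, the DNA polymerases, the sliding clamp and its loaders, nucleotide synthesis, and the supply and assembly of chromatin on new DNA. Gene expression was measured on 6 Agilent 2-colour arrays of 22RV1, an established human prostate carcinoma line whose cells make the trypsin inhibitor SPINK1. Every array set a line that overexpresses a microRNA (Cy5 dye) against control cells (Cy3 dye). The lines carried a lentiviral vector, pLemiR-338-5p or pLemiR-421, and the control cells carried pLemiR-RFP, which encodes a red fluorescent protein. All lines were grown in RPMI medium with puromycin at 1 µg/mL, which the control cells received too. The miR-338-5p group held replicates 1, 2 and 3, and the miR-421 group held a sample named a pool and replicates 1 and 2. The labels do not say what the pool holds, what the letter C before the other replicate numbers means, or whether any line is a single clone. They also do not say whether the samples came from separate cultures or whether all arrays share the same control RNA, so p-values measure the spread between these samples, which may be technical.

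A microRNA is a short RNA that lowers the output of messenger RNAs it pairs with, mainly through its seed, bases 2 to 8 from the 5′ end. The mature sequences, from RefSeq on GRCh38.p14, are shown because the lines differ by them, with the seed in capitals.
hsa-miR-338-5p: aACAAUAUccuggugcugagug
hsa-miR-421: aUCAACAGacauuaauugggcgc
The seeds are different. No target sites were searched here, so a lower signal below is a measured level and not evidence of pairing.

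In a dividing cell, the origin recognition complex with CDC6 and CDT1 loads the MCM2 to MCM7 ring onto DNA in G1. In S phase CDC45 and the GINS complex turn that ring into the moving helicase. Polymerases alpha, delta and epsilon copy the strands behind it, and the PCNA clamp tethers delta and epsilon. Most of these genes are transcribed in a wave around the start of S phase under the E2F transcription factors, so they are widely used as markers of proliferating tumour cells.

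Values are log2 ratios of the microRNA line over control after background correction and loess normalization, so -1 is a signal at 50% of control. A gene is given by its brightest probe. An adjusted p is from limma over all tested probes, two-sided, with Benjamini-Hochberg adjustment, and the threshold is 0.05. Means carry the SD over 3 arrays. Where 6 values are listed, they stand in the order miR-338-5p replicates 1, 2 and 3, then the miR-421 pool and miR-421 replicates 1 and 2.

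All 50 genes had a tested probe, 40 of them 1 probe and 10 of them 2. The control channel was well above background on all 6 arrays for 49 of the 50 genes, and the Cy5 channel for 48. Over all gene spots, 44.3% to 47.9% were well above background in Cy3 and 41.9% to 48.3% in Cy5, with 0 saturated. Ratios of all tested probes correlated at 0.478 to 0.613 between the miR-338-5p arrays and at 0.637 to 0.823 between the miR-421 arrays. All 11 markers of the 22RV1 line were above background in the control channel on all 6 arrays. SPINK1, the marker the labels name, was far lower in both lines (-3.97 ± 2.47 and -6.61 ± 0.44, limma adjusted p = 0.0418 and 0.00775). Another 13 markers with a probe belong to blood, fibroblast, endothelial, basal and neuroendocrine cells. Of these, 8 were above background in the control channel on all 6 arrays, and 4 were not above background on any array. Of the 8 that were tested, CHGA (1.95) and ACTA2 (0.48) rose in the miR-421 line with limma adjusted p of 0.0363 and 0.0491. The median ratio of these 8 was 0.02 to 0.08 on the miR-338-5p arrays and 0.15 to 0.17 on the miR-421 arrays. Their part in the results below was not tested.

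The replication genes were mostly lower in both lines. In the miR-338-5p line 18 of 50 fell and 0 rose, against 9.25% of all 21695 genes past the threshold, 5.26% lower and 3.99% higher. In the miR-421 line 20 of 50 fell and 4 rose, against 22.7% of all genes past the threshold, 12.6% lower and 10.0% higher. The median ratio of the 50 genes was -0.48 in the miR-338-5p line and -0.44 in the miR-421 line, while the median of all genes was -0.001 and 0.006. The mean was below 0 for 46 of the 50 genes in the miR-338-5p line and for 44 in the miR-421 line. On all 3 arrays of its line, the ratio was below 0 for 41 of the 50 genes with miR-338-5p and for 36 with miR-421, against 26.6% and 30.5% of all genes. In these bulk samples, fewer cells in S phase and less RNA per cell cannot be told apart.

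**Figure D1:**
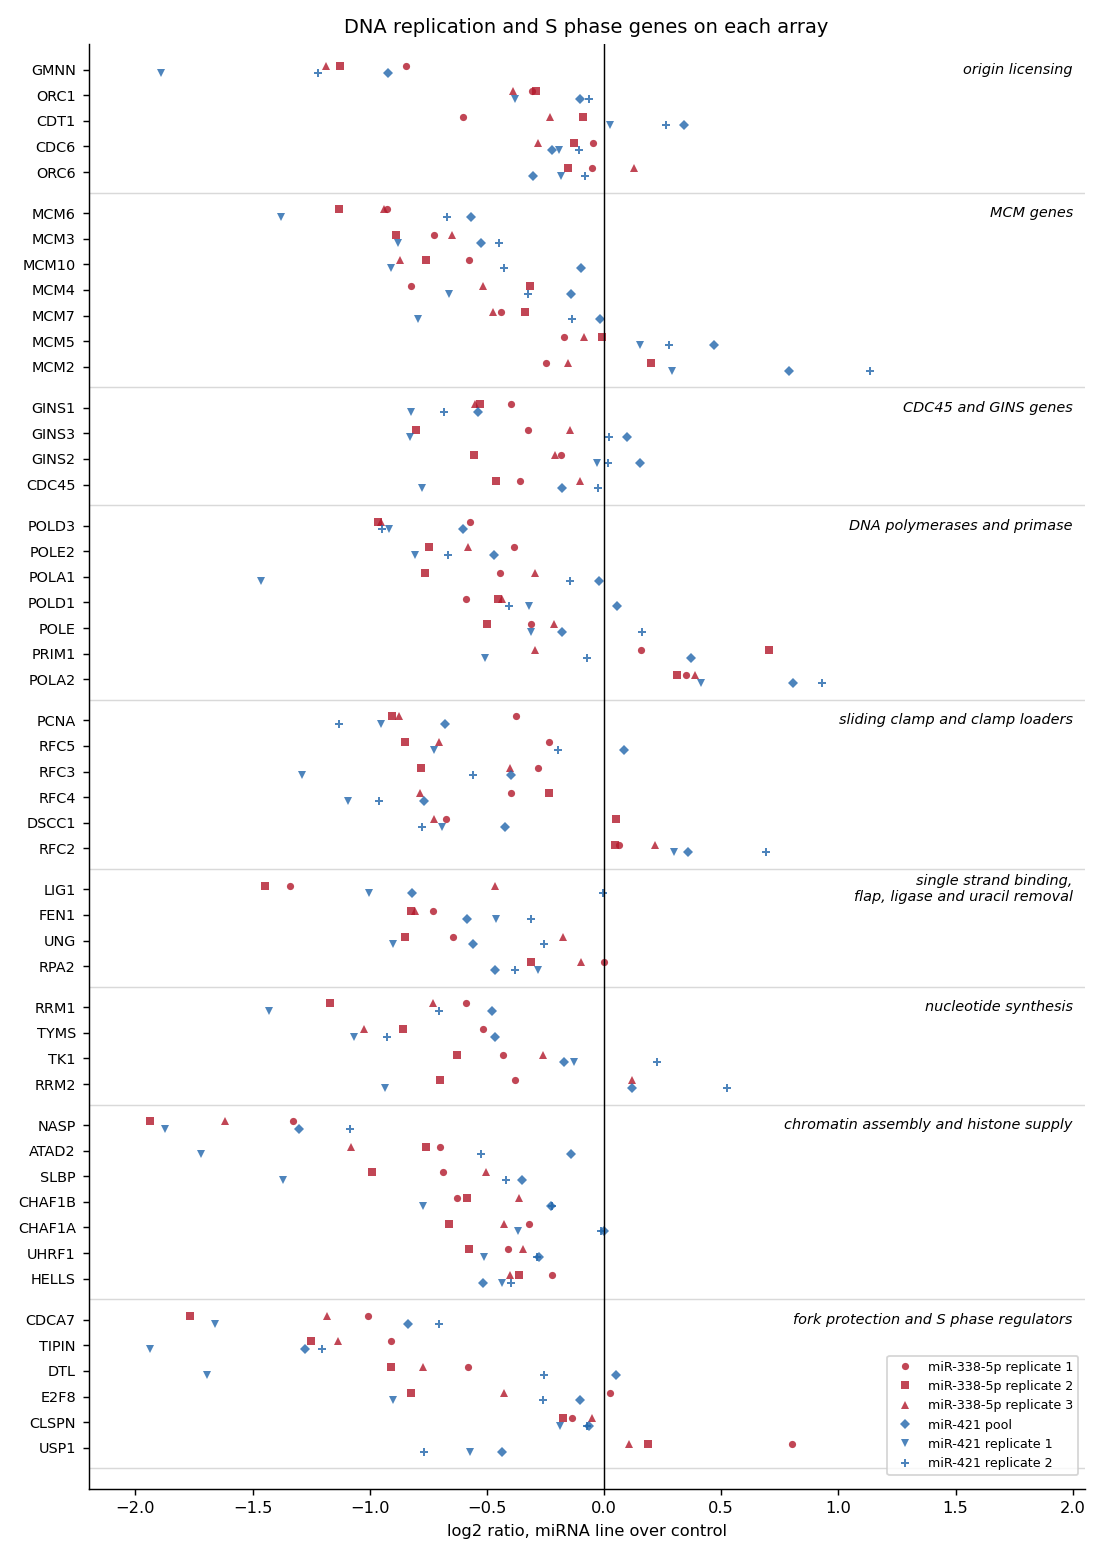
Log2 ratio over control (horizontal axis) of each of the 50 genes on each of the 6 arrays, ordered by role and then by the miR-338-5p mean. Red points are miR-338-5p arrays and blue points miR-421 arrays. Most points lie left of 0, and NASP, TIPIN, GMNN and CDCA7 lie farthest left.

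The counts of genes past the threshold rest on single arrays more than the direction does. The miR-338-5p count of 18 was 4, 3 and 1 without miR-338-5p replicates 1, 2 and 3. It was 30 and 5 without miR-421 replicates 1 and 2, because both groups share the estimate of the spread. Over all tested probes, the miR-338-5p count of 2476 of 27501 was 568, 579 and 400 without miR-338-5p replicates 1, 2 and 3. It was 3650 and 752 without miR-421 replicates 1 and 2. Without miR-338-5p replicate 3, the 1 of 50 genes was thus near the share of all probes. The miR-421 count of 24 was 4 without miR-421 replicate 2, and between 16 and 23 without any other array. Over all tested probes it was 5950 of 27491, 629 without miR-421 replicate 2, and between 2973 and 5506 without any other array. Of the 18, 12 passed in at most 2 of the 6 fits that left out an array. Of the 24, FEN1, GINS1, NASP and TIPIN passed in all 6 such fits and 9 more in 5 of them. The miR-421 calls of CDCA7 and UHRF1 were lost when any miR-421 array was left out. The mean stayed below 0 for 45 or 46 of the 50 genes in the miR-338-5p line and for 40 to 44 in the miR-421 line over the same fits.

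The arrays of a line did not read these genes alike. The median ratio of the 50 genes was -0.41, -0.64 and -0.43 on miR-338-5p replicates 1, 2 and 3. It was -0.23 on the miR-421 pool, -0.79 on miR-421 replicate 1 and -0.27 on miR-421 replicate 2. For 39 of the 50 genes miR-421 replicate 1 was the lowest of its 3 arrays, and over all genes that share was 44.7%. For 31 of the 50 genes miR-338-5p replicate 2 was the lowest, against 36.8% of all genes. Without miR-421 replicate 1 the median of the miR-421 line was -0.25 in place of -0.44.

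**Figure D2:**
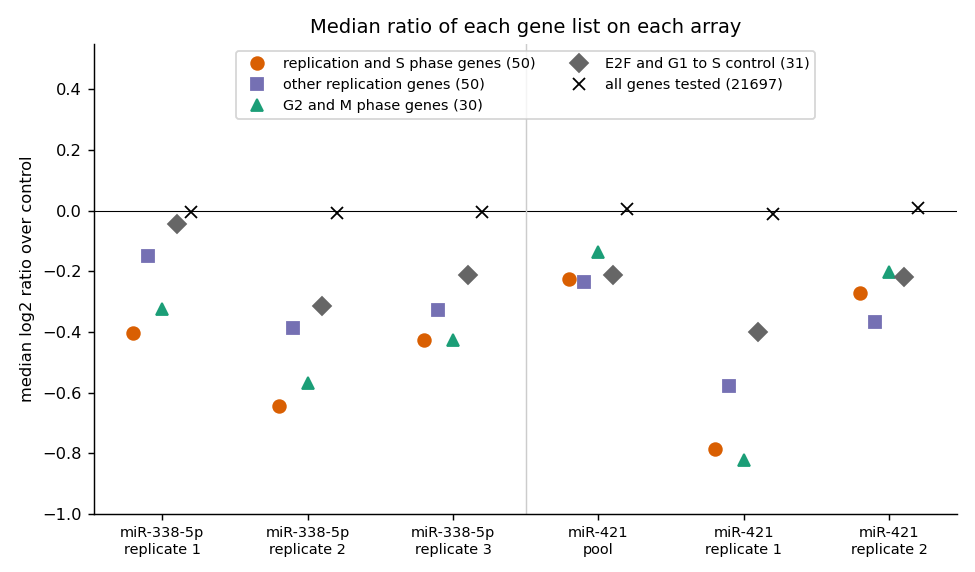
Median log2 ratio over control (vertical axis) of 5 sets of genes on each of the 6 arrays. The replication genes lie below all genes on every array, and lowest, at -0.79, on miR-421 replicate 1, where the G2 and M phase genes lie at -0.82.

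Origin licensing genes differed among themselves. GMNN encodes geminin, which binds CDT1 and blocks reloading of origins. GMNN read -0.85, -1.13, -1.19, -0.92, -1.89 and -1.22, so it was lower on every array, most on miR-421 replicate 1. It fell to 48.2% of control with miR-338-5p (mean -1.05 ± 0.18, adjusted p = 0.0271) and to 39.4% with miR-421 (mean -1.34 ± 0.50, adjusted p = 0.00886). CDT1, the loader that geminin inhibits, read -0.60, -0.09, -0.23, 0.34, 0.03 and 0.26. CDT1 was thus below control on all miR-338-5p arrays and above it on all miR-421 arrays, and neither mean passed the test (-0.31 and 0.21, adjusted p = 0.146 and 0.229). ORC6, a subunit of the origin recognition complex, stayed near control at -0.05, -0.15, 0.13, -0.31, -0.19 and -0.08 (adjusted p = 0.869 and 0.122). ORC1, the ATP-binding subunit, was just inside the threshold in the miR-338-5p line (-0.33 ± 0.05, adjusted p = 0.05 after rounding). Of the 5 licensing genes, 2 fell in the miR-338-5p line and 1 in the miR-421 line. CDC6, which recruits the MCM ring, did not pass in either line (-0.15 and -0.17). CDC6 was dim (mean log2 intensity 6.16), with Cy5 well above background on 2 of the 3 miR-421 arrays, so its small ratio is a weak measure of change.

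The 6 genes of the MCM ring did not move as a unit. MCM6 was the lowest of them, at -0.93, -1.13, -0.94, -0.57, -1.38 and -0.67. It fell to 50% of control with miR-338-5p (-1.0 ± 0.11, adjusted p = 0.0223) and to 54.6% with miR-421 (-0.87 ± 0.44, adjusted p = 0.0175). MCM3 fell as well, at -0.73, -0.89, -0.65, -0.53, -0.88 and -0.45 (means -0.75 ± 0.12 and -0.62 ± 0.23, adjusted p = 0.0148 and 0.0126). All 6 arrays were below 0 for both genes, and the lines overlapped. MCM4 read -0.82, -0.32, -0.52, -0.14, -0.66 and -0.32, also below 0 throughout, but its means of -0.55 and -0.38 did not pass (adjusted p = 0.054 and 0.0894). MCM7 read -0.44, -0.34, -0.47, -0.02, -0.80 and -0.14, with adjusted p of 0.138 and 0.179. The other MCM7 probe read means of 0.06 and 0.11, so the direction of MCM7 depends on the probe.

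MCM2 and MCM5 stood apart from the rest of the ring. MCM2 read -0.25, 0.20, -0.15, 0.79, 0.29 and 1.13. It rose to 167% of control in the miR-421 line (0.74 ± 0.43, adjusted p = 0.0311), with every miR-421 array above every miR-338-5p array. In the miR-338-5p line its mean was -0.07 ± 0.24 (adjusted p = 0.848). MCM5 read -0.17, -0.01, -0.09, 0.47, 0.15 and 0.28, below 0 with miR-338-5p and above 0 with miR-421 on every array. MCM5 rose in the miR-421 line (0.30 ± 0.16, adjusted p = 0.0389). Its other probe fell in the miR-338-5p line (-0.27, adjusted p = 0.0335) and rose in the miR-421 line (0.28, adjusted p = 0.018), with a difference of -0.55 whose adjusted p was 0.0765. Leaving out miR-338-5p replicate 1 or 3, miR-421 replicate 2 or the pool raised the adjusted p of MCM2 above 0.05, and leaving out any array but miR-421 replicate 1 did so for MCM5. Neither rise passed after median centring of the arrays in place of loess. MCM10, which helps start the helicase, fell in the miR-338-5p line (-0.74 ± 0.15, adjusted p = 0.0396) and averaged -0.48 in the miR-421 line without passing. In all, 3 of the 7 MCM genes fell in the miR-338-5p line, and in the miR-421 line 2 fell and 2 rose.

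**Figure D3:**
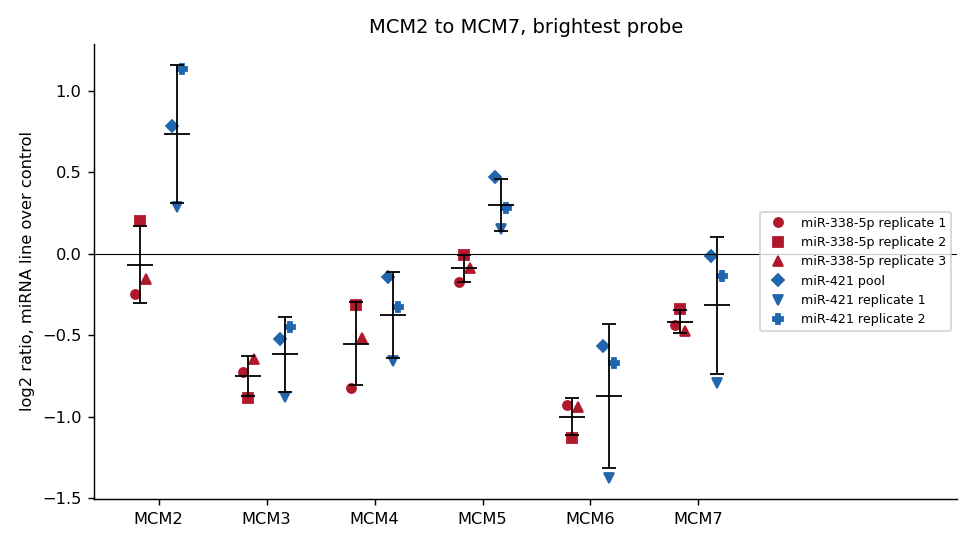
Log2 ratio over control of MCM2 to MCM7 on each array, with the mean and SD of each line (3 arrays) as black bars. MCM3 and MCM6 lie below 0 on all 6 arrays, while MCM2 and MCM5 lie above 0 on all 3 miR-421 arrays.

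CDC45 and the GINS genes, partners of the MCM ring, showed 1 member past the threshold per line. GINS1 read -0.40, -0.53, -0.55, -0.54, -0.82 and -0.68, and fell in both lines (-0.49 ± 0.08 and -0.68 ± 0.14, adjusted p = 0.019 and 0.00531). GINS2 read -0.18, -0.56, -0.21, 0.15, -0.03 and 0.02, so its miR-421 arrays all lay above its miR-338-5p arrays and close to control. CDC45 read -0.36, -0.46, -0.10, -0.18, -0.78 and -0.03, and its means of -0.31 and -0.33 did not pass (adjusted p = 0.261 and 0.176). GINS3 averaged -0.43 and -0.24, and only miR-421 replicate 1 was low among its miR-421 arrays, at -0.83.

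Polymerase genes split between a lowered set and POLA2. POLD3, an accessory subunit of polymerase delta, read -0.57, -0.97, -0.95, -0.60, -0.92 and -0.95. POLD3 fell to 56.3% and 56.6% of control (-0.83 ± 0.22 and -0.82 ± 0.19, adjusted p = 0.0148 and 0.00824), nearly the same size in both lines. POLE2, the second subunit of polymerase epsilon, fell as well, at -0.39, -0.75, -0.58, -0.47, -0.81 and -0.66 (adjusted p = 0.024 and 0.0101). POLA2, the regulatory subunit of the polymerase alpha and primase complex, went the other way. It read 0.35, 0.31, 0.39, 0.81, 0.41 and 0.93, above 0 on all 6 arrays. POLA2 rose to 164% of control in the miR-421 line (0.72 ± 0.27, adjusted p = 0.00963), while its mean in the miR-338-5p line, 0.35 ± 0.04, did not pass (adjusted p = 0.0871). The rise of POLA2 passed under 14 of 18 alternatives (adjusted p from 0.00574 to 0.133), and did not pass without miR-421 replicate 2 or after median centring. The POLA2 probe carries the Ensembl transcript ENST00000534785 as its identifier, and the other 49 genes carry RefSeq transcripts. POLD1, the catalytic subunit of polymerase delta, fell in the miR-338-5p line alone by the threshold (-0.49, adjusted p = 0.0366, against -0.23, adjusted p = 0.151), and the difference did not pass (-0.27, adjusted p = 0.453). POLA1, POLE and PRIM1 did not pass in either line. PRIM1, the primase catalytic subunit, spread from -0.51 to 0.70 over the arrays.

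Of the 6 genes of the clamp and its loaders, 4 fell and 1 rose in the miR-421 line, where 22.7% of all genes were past the threshold. PCNA, the sliding clamp, read -0.38, -0.90, -0.88, -0.68, -0.95 and -1.13. It fell to 60.8% of control with miR-338-5p (-0.72 ± 0.30, adjusted p = 0.0311) and to 52.8% with miR-421 (-0.92 ± 0.23, adjusted p = 0.00989). Its other probe gave -0.80 and -0.84 and passed in both lines. RFC4, a subunit of the complex that opens the clamp, read -0.40, -0.24, -0.79, -0.77, -1.09 and -0.96. RFC4 fell in the miR-421 line (-0.94 ± 0.16, adjusted p = 0.00755) and averaged -0.47 ± 0.28 in the miR-338-5p line (adjusted p = 0.0611). RFC2, another loader subunit, did not follow it, at 0.06, 0.05, 0.22, 0.36, 0.30 and 0.69. RFC2 rose in the miR-421 line (0.45 ± 0.21, adjusted p = 0.0221), and all miR-421 arrays lay above all miR-338-5p arrays. The rise of RFC2 passed under 10 of 18 alternatives (0.33 to 0.56, adjusted p from 0.0211 to 0.173), and did not pass after median centring, without miR-421 replicate 2 or without the pool. RFC3 and DSCC1, a loader subunit used in sister chromatid cohesion, fell in the miR-421 line (-0.75 and -0.63, adjusted p = 0.0384 and 0.0427), and both calls were lost when any miR-421 array, or miR-338-5p replicate 1 or 3, was left out. RFC5 averaged -0.60 and -0.28 without passing.

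FEN1, which trims the flaps of Okazaki fragments, had the lowest adjusted p of all 50 genes in the miR-338-5p line. It read -0.73, -0.83, -0.81, -0.59, -0.46 and -0.31, so every miR-338-5p array lay below every miR-421 array. FEN1 fell to 57.9% of control with miR-338-5p (-0.79 ± 0.05, adjusted p = 0.00589) and to 73.1% with miR-421 (-0.45 ± 0.14, adjusted p = 0.0104), and the difference did not pass (-0.34, adjusted p = 0.228). Among the 18 genes that fell in the miR-338-5p line, FEN1 was the only one to pass in all 6 fits that left out 1 array. LIG1, which seals the fragments, read -1.34, -1.45, -0.47, -0.82, -1.01 and -0.01. LIG1 was low on most arrays but spread too widely to pass (-1.09 ± 0.54 and -0.61 ± 0.53, adjusted p = 0.0538 and 0.14). RPA2, part of the complex that coats single-stranded DNA, read 0.00, -0.31, -0.10, -0.46, -0.28 and -0.38. RPA2 fell in the miR-421 line (-0.37 ± 0.09, adjusted p = 0.0234), a call lost when any miR-421 array was left out. UNG, which removes uracil from DNA, averaged -0.56 and -0.57 without passing.

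Among the nucleotide synthesis genes, TYMS was the member that fell in both lines. TYMS encodes thymidylate synthase, and read -0.52, -0.86, -1.02, -0.47, -1.07 and -0.93. It fell to 57.4% and 56.7% of control (-0.80 ± 0.26 and -0.82 ± 0.31, adjusted p = 0.0293 and 0.0157). RRM1, the large subunit of ribonucleotide reductase, read -0.59, -1.17, -0.73, -0.48, -1.43 and -0.70. RRM1 fell in the miR-421 line (-0.87 ± 0.50, adjusted p = 0.0311) and narrowly missed in the miR-338-5p line with a mean of like size (-0.83 ± 0.30, adjusted p = 0.0559). The miR-421 call of RRM1 passed in 2 of the 6 fits that left out an array. RRM2, the small subunit whose level follows S phase, did not show the fall of RRM1. It read -0.38, -0.70, 0.12, 0.12, -0.93 and 0.52, with both signs in both lines (adjusted p = 0.542 and 0.846). TK1, thymidine kinase, read -0.43, -0.63, -0.26, -0.17, -0.13 and 0.23, so its lines did not overlap, and neither mean passed (adjusted p = 0.0559 and 0.889).

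Chromatin genes included the lowest mean of all 50, NASP, which carries histones H3 and H4 to assembly. NASP read -1.33, -1.94, -1.62, -1.30, -1.88 and -1.09. It fell to 32.4% of control with miR-338-5p (-1.63 ± 0.30, adjusted p = 0.0104) and to 37.4% with miR-421 (-1.42 ± 0.41, adjusted p = 0.00733). The NASP probe lies at chr1:46083949-46084008 of hg19, plus strand. UHRF1, which brings the maintenance DNA methyltransferase to new DNA, read -0.41, -0.58, -0.35, -0.28, -0.51 and -0.29 and fell in both lines (adjusted p = 0.0254 and 0.0246). Its other probe passed in neither (-0.20 and -0.03). HELLS, a remodeller needed for DNA methylation, read -0.22, -0.36, -0.40, -0.52, -0.44 and -0.40 and fell in both lines by a small amount with little spread (-0.33 ± 0.09 and -0.45 ± 0.06, adjusted p = 0.0293 and 0.00815). The other HELLS probe read -0.26 in the miR-338-5p line without passing (adjusted p = 0.129) and -0.39 in the miR-421 line (adjusted p = 0.0312). The miR-338-5p call of HELLS held under 4 of 18 alternatives and the miR-421 call under 15 of 18. CHAF1A, the large subunit of the chromatin assembly factor CAF-1, read -0.32, -0.66, -0.43, 0.00, -0.37 and -0.01. CHAF1A fell in the miR-338-5p line (-0.47 ± 0.17, adjusted p = 0.0434), a call that passed in 1 of the 6 fits that left out an array. All 7 chromatin genes had a mean below 0 in both lines, and 4 fell in the miR-338-5p line and 3 in the miR-421 line. SLBP, which binds histone messenger RNA, averaged -0.73 and -0.71, CHAF1B -0.53 and -0.41, and ATAD2 -0.85 and -0.80, all without passing. For ATAD2 the miR-421 mean came largely from replicate 1, at -1.72, while the pool read -0.14.

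Fork protection genes held the lowest mean of the miR-421 line, TIPIN, a partner of TIMELESS that steadies stalled forks. TIPIN read -0.91, -1.25, -1.14, -1.28, -1.94 and -1.20. It fell to 46.7% of control with miR-338-5p (-1.10 ± 0.17, adjusted p = 0.0173) and to 36.0% with miR-421 (-1.47 ± 0.41, adjusted p = 0.00531). CDCA7, which recruits HELLS to chromatin, read -1.01, -1.77, -1.18, -0.84, -1.66 and -0.71. CDCA7 fell to 40.1% and 47.7% of control (-1.32 ± 0.40 and -1.07 ± 0.52, adjusted p = 0.0252 and 0.0246). Its other probe gave only -0.26 and -0.20 and passed in neither line, so the size of the CDCA7 change depends on the probe. USP1, the deubiquitinase of PCNA and FANCD2, read 0.80, 0.19, 0.11, -0.44, -0.57 and -0.77. USP1 fell in the miR-421 line (-0.59 ± 0.17, adjusted p = 0.0372), while all 3 miR-338-5p arrays were above control (0.37 ± 0.38, adjusted p = 0.173). The miR-421 call of USP1 was lost when any miR-421 array was left out, and passed under 8 of 18 alternatives. CLSPN, the checkpoint mediator claspin, was the dimmest gene of the 50. Its Cy5 signal was well above background on 1 of the 3 miR-338-5p arrays and on 0 of the 3 miR-421 arrays, and it read -0.14, -0.18, -0.05, -0.06, -0.19 and -0.08. In the miR-421 line the mean log2 signals, made comparable between arrays, were 6.012 in Cy3 and 5.903 in Cy5. With Cy5 not well above background there, this 1.08-fold gap is a weak measure of change and not a lower limit. The miR-421 mean did not pass (limma adjusted p = 0.205), and the part of dye bias in it was not tested. The CLSPN ratio depends on how its background is treated: the means of -0.12 and -0.11 were -0.71 and -1.02 after subtracting the local background, and -0.84 and -1.21 from the software's own ratio. The miR-421 value of CLSPN passed under 2 of 18 alternatives, the software's ratio and the authors' deposited table (adjusted p from 0.0421 to 0.528 over all 18). DTL, which marks CDT1 for destruction in S phase, averaged -0.75 and -0.63, and its miR-421 arrays ran from 0.05 on the pool to -1.70 on replicate 1. E2F8, a repressor of the E2F family, averaged -0.41 and -0.42 without passing.

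The comparisons of both lines with control were set side by side. Past the threshold were 14 genes in both comparisons, all lower (4.03% of all genes), 4 in the miR-338-5p comparison alone, 10 in the miR-421 comparison alone and 22 in neither. Both comparisons may share control RNA, so this overlap is given as a count and not as a result. Of all 21697 genes, 667 passed in the miR-338-5p comparison alone, 3578 in the miR-421 comparison alone and 16113 in neither. The 14 were GMNN, MCM3, MCM6, GINS1, POLD3, POLE2, PCNA, FEN1, TYMS, NASP, UHRF1, HELLS, TIPIN and CDCA7.

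**Figure D4:**
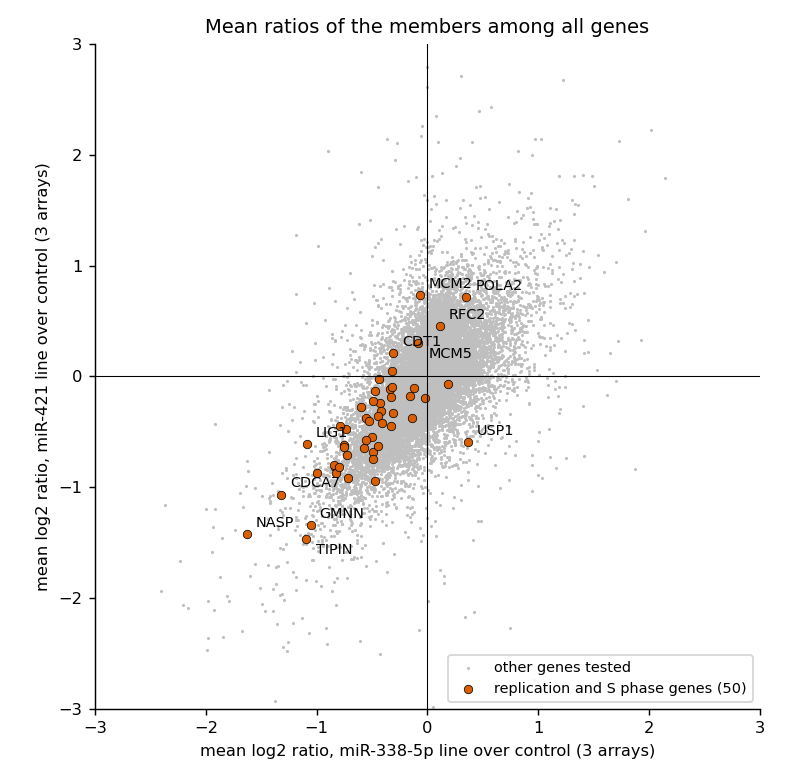
Mean log2 ratio of each gene in the miR-338-5p line (horizontal axis) and in the miR-421 line (vertical axis), 3 arrays each, with the 50 genes in orange and all other genes in grey. Most orange points lie in the lower left, MCM2, MCM5, POLA2, RFC2 and CDT1 lie above 0 on the vertical axis, and 14 genes of the array fall outside the axes.

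The direct difference between the lines, in which whatever control signal the 6 arrays have in common drops out, passed the limma threshold for 0 of the 50 genes, against 0.0461% of all genes. At an unadjusted p under 0.05 there were 10 of 50, against 14.3% of all genes. The lines did not overlap for 10 of the 50 genes, against 20.0% of all genes, so that share equals the background. In 9 of these 10 (GINS2, POLA2, POLD1, MCM2, MCM5, TK1, CDT1, FEN1 and RFC2) the miR-338-5p arrays were the lower ones, and in USP1 they were the higher ones. That split was not counted over all genes, so it is not read as a trait of the 50. The difference was below 0 for 30 of the 50 genes, against 49.4% of all genes. USP1, MCM5 and CDT1 had opposite signs on all arrays of the lines, 3 of 50 against 3.63% of all genes. The largest difference was that of USP1, 0.96 with a 95% interval of 0.46 to 1.46 (adjusted p = 0.162). MCM2 differed by -0.80, with an interval of -1.38 to -0.22 (adjusted p = 0.245). For NASP the interval was -0.81 to 0.40 and for PCNA -0.25 to 0.66, so a moderate difference in either direction was within the error of these 6 arrays.

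Other genes of the cell cycle were set beside the 50. Of 50 further replication genes, 8 fell and 0 rose in the miR-338-5p line, and 20 fell and 2 rose in the miR-421 line, with medians of -0.26 and -0.42, and 16% and 44% were past the threshold against 9.25% and 22.7% of all genes. FAM111B, a serine protease, was the lowest of them (-1.35 and -1.71) and fell in the miR-421 line (adjusted p = 0.0665 and 0.0233). TOP1, which relieves the twist ahead of the fork, fell to -1.0 in the miR-421 line (adjusted p = 0.00521). At the other end CDCA7L, a relative of CDCA7, rose in the miR-421 line (1.24, adjusted p = 0.00563), as did POLD2, a subunit of polymerase delta (0.56, adjusted p = 0.0327). TK2, a mitochondrial thymidine kinase, and ORC5 had the highest means with miR-338-5p (0.31 and 0.14) and did not pass.

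Of 30 genes of G2 and mitosis, 5 fell and 0 rose in the miR-338-5p line, and 7 fell and 1 rose in the miR-421 line. The share past the threshold was 16.7% in the miR-338-5p line, against 9.25% of all genes, and 26.7% in the miR-421 line, near the 22.7% of all genes. Their medians of -0.40 and -0.43 were close to those of the replication genes. CENPF and CENPE, proteins of the kinetochore, fell in the miR-421 line (-1.54 and -1.51, adjusted p = 0.0353 and 0.00344). NUSAP1, which binds spindle microtubules, was the lowest in the miR-338-5p line at -1.42 but just missed the threshold (adjusted p = 0.0504). PLK1, a mitotic kinase, rose in the miR-421 line (0.43, adjusted p = 0.0309), and CDC20 averaged 0.45 there without passing. CENPA, with 0.27 in the miR-338-5p line, did not pass either.

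Of 33 genes of E2F and G1 to S control, 31 were tested, with medians of -0.09 and -0.27. In the miR-338-5p line 5 fell and 1 rose, and in the miR-421 line 8 fell and 3 rose, shares of 19.4% and 35.5% past the threshold. E2F3, an activating E2F factor, was the lowest in both lines (-1.28 and -1.51, adjusted p = 0.0388 and 0.0151). CCNA2, the S phase cyclin, fell as well (-0.76 and -0.80, adjusted p = 0.0133 and 0.00639), and CDK6 fell in the miR-421 line (-1.37, adjusted p = 0.00957). CDKN1B, the inhibitor p27, read 0.77, 0.46, 0.79, -0.56, -0.65 and -0.44. CDKN1B rose in the miR-338-5p line (0.67, adjusted p = 0.014) and fell in the miR-421 line (-0.55, adjusted p = 0.0118), and its difference of 1.22 had an adjusted p of 0.0561. CDKN1A, the inhibitor p21, rose in the miR-421 line (0.73, adjusted p = 0.033) and was at 0.09 in the miR-338-5p line. TFDP2, a partner of E2F, averaged 0.59 and 0.63 without passing. Without miR-421 replicate 2, the counts past the threshold in the miR-421 line were 3 for the further replication genes, 2 for the G2 and mitosis genes and 1 for the E2F and G1 to S genes. Over all probes that fit gave 629 of 27475.

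Promoter sequences were read because many of the 50 genes are known as E2F targets and most of those past the threshold fell. RefSeq promoters on GRCh38.p14, from 250 bases before to 50 after the start of transcription, were matched by symbol for 43 of the 50 genes. The E2F core, TTCCCGC or TTGGCGC on either strand, was present in 33 of these 43 genes (76.7%), against 9.23% of all 35116 promoters of that length and 16.6% of the tested genes with a promoter. It was present in 38.5% of the other replication genes, 34.6% of the E2F and G1 to S control genes and 16.0% of the G2 and M phase genes. With the window kept to the 250 bases before the start, the share was 58.1%, against 14.4% of the tested genes with a promoter. A gene was counted if any of its promoters held the letters. The CCAAT box was present in 65.1% of the 43 genes, in 42.5% of the tested genes with a promoter and in 34.6% of all promoters. The cell cycle homology region, TTTGAA or TTCGAA on either strand, was present in 4 of the 43 (9.3%), in 15.5% of the tested genes with a promoter and in 16.4% of all promoters. It was present in 80.0% of the G2 and M phase genes. Whether promoter letters relate to the ratios of these lists was not tested.

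The windows below show 1 E2F core per gene (capitals) with its surroundings, 47 bases each, 5′ to 3′ on the strand of the gene. They are from some of the genes that fell in both lines and, last, from CDT1, whose lines took opposite signs. GINS1 and POLE2 also fell in both lines and hold a core, and are not shown.
MCM3, chr6:52284889-52284935, minus strand: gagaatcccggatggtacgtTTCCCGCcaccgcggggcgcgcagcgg
MCM6, chr2:135876506-135876552, minus strand: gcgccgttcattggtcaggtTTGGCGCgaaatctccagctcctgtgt
PCNA, chr20:5126655-5126701, minus strand: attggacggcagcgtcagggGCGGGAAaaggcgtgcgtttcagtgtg
TYMS, chr18:657594-657640, plus strand: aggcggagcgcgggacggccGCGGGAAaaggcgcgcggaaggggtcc
GMNN, chr6:24775314-24775360, plus strand: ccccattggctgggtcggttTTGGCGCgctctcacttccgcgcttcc
TIPIN, chr15:66356721-66356767, minus strand: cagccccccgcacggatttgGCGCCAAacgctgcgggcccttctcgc
HELLS, chr10:94545692-94545738, plus strand: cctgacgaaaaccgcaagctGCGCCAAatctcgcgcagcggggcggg
UHRF1, chr19:4909377-4909423, plus strand: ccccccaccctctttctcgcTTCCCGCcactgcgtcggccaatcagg
CDCA7, chr2:173354787-173354833, plus strand: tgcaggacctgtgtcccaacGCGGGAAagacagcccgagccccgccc
CDT1, chr16:88803734-88803780, plus strand: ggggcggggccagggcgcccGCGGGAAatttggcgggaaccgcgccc
The capitals begin 173 bases before the start in MCM3, 104 in UHRF1, 89 in MCM6, 79 in GMNN, 76 in HELLS, 65 in CDCA7, 62 in TIPIN, 59 in PCNA, 39 in TYMS and 35 in CDT1. Further matches, not in capitals, begin 151 bases before the start in MCM6, 65 in TIPIN, 23 in MCM3 and CDT1, 14 in UHRF1 and 7 in HELLS. Those of TIPIN and CDT1 lie inside the windows shown. CDT1 did not pass in either line, and the part of these letters in the ratios was not tested.

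Genes with and without the E2F core were both mostly lower. The 33 genes with it had a median of -0.47 in the miR-338-5p line and -0.54 in the miR-421 line, and the 10 without it had -0.55 and -0.30. The 10 without it were CDC45, FEN1, MCM10, MCM2, NASP, ORC6, POLA2, POLD1, RFC5 and SLBP, among them both NASP, the lowest mean, and MCM2 and POLA2, which rose in the miR-421 line. A match is a description of letters, and occupancy by a factor was not measured.

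**Figure D5:**
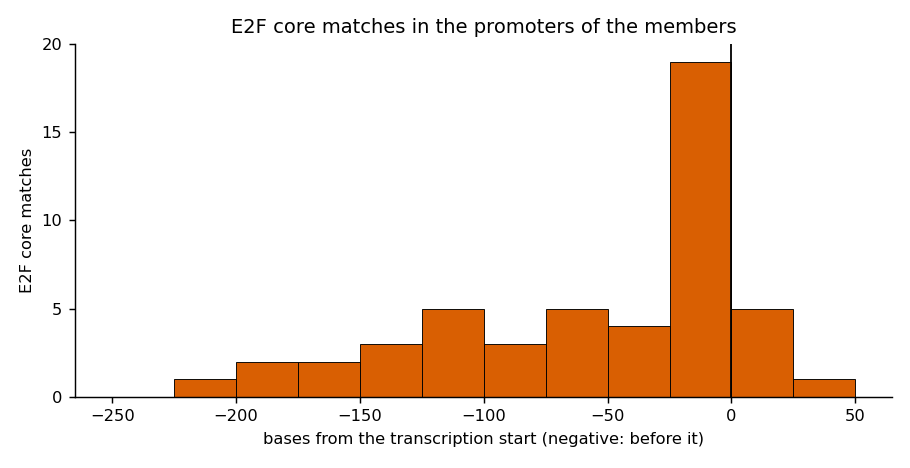
Number of E2F core matches (vertical axis) by the distance of their first base from the start of transcription (horizontal axis, bins of 25 bases), over all promoters of the 43 genes, some of which overlap. Of 50 matches, 31 begin within 100 bases before the start, 13 lie farther upstream and 6 begin at or after it.

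The base composition of the probes moved with the ratios. The median GC content of the probe was 40% for the 50 genes and 45% for all genes. Across all genes, the correlation of probe GC with the ratio was 0.103 in the miR-338-5p line and 0.286 in the miR-421 line, and across the 50 genes it was 0.224 and 0.387. Genes are not independent replicates, and probes of all genes share the same arrays. Among probes of over 35% and up to 40% GC, the medians were -0.65 and -0.70 for 16 of the 50 genes against -0.03 and -0.08 for all genes, and above 45% they were -0.34 and -0.11 for 7 genes against 0.03 and 0.08. In each of the 4 bins of GC content the 50 genes were lower than all genes in both lines.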

How the data were processed

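Per the file headers, the authors scanned the arrays and read them with Feature Extraction 11.5.1.1. The intensity values they deposited, a mean signal and a local background per spot and dye, are not normalized. That software also made the deposited log10 ratios, and a table of the whole series, also deposited, gave log2 ratios per gene name whose normalization is not given in the sources used here. Both served as alternatives. Per the labels' protocols, total RNA was tailed with poly(A) and labelled from oligo-dT primers, so RNA without its own tail could be labelled.

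Intensities were corrected by normexp (offset 50) and normalized by loess per array, with control spots at weight 0 and outlier spots left out. Spots of 1 probe were averaged. A probe was kept if Cy3 or Cy5 was well above background on 3 or more of the 6 arrays, which held for 27503 of 58201. R 4.3.3 and limma 3.58.1 were used, with all 6 arrays in 1 fit, and the script was tested on simulated data. The spread of the control itself is not in the test against 0 if all arrays used the same control culture. No dyes were swapped, so any dye bias is part of both comparisons with control. The number of arrays limits the precision. Gene names are those of the array design, with probe positions on hg19.

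The genes and lists were chosen with earlier results of these data known. Genes given with values on every array were the lowest and highest of each role in each comparison, those past the threshold in both comparisons with the same sign on all 6 arrays, any past the threshold in the difference, and MCM2 to MCM7, PCNA, RRM2 and TYMS. From the other lists the 2 lowest and 2 highest means in each comparison were named, except 1 gene that is not reported here; CCNA2 belongs to these, and other genes of the 50 are given by their means. Alternatives changed the background correction, the normalization, where the ratio came from, the filter, the handling of outlier spots, the probes used per gene, the variance model and which arrays were fitted, with a replicate block among them.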

Additional observations from a re-analysis of the deposited data

Results flagged for a closer look

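In 3 of the 50 genes all miR-338-5p arrays lay on 1 side of control and all miR-421 arrays on the other, which 3.63% of all genes did. USP1 was above control with miR-338-5p and below it with miR-421, a difference of 0.96 on the log2 scale (limma adjusted p = 0.162). MCM5 and CDT1 were below control with miR-338-5p and above it with miR-421, with differences of -0.39 and -0.52 (limma adjusted p = 0.22 and 0.257). None of these differences passed the threshold.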

How the results depend on the processing

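The number of genes past the threshold depended on the processing, and the direction of the median did not. In the miR-338-5p comparison the count of 18 was 10 with no filter, 8 after subtracting the local background, 6 in the authors' deposited table, 5 from the software's own ratio, 5 when the group's arrays were fitted alone and 4 after median centring. Without single arrays it ranged from 1 to 30. In the miR-421 comparison the count of 24 was 11 with median centring and ranged from 4 to 23 without single arrays. Over all probes, the miR-338-5p count of 2476 of 27501 was 1590 of 58199 with no filter and 1579 of 27501 after subtracting the local background. It was 1093 from the software's own ratio, 214 with the group's arrays alone and 1284 after median centring, each of 27501. The authors' deposited table gave 984 of 21691 genes. The miR-421 count over all probes, 5950 of 27491, was 3877 after median centring. The median of the miR-338-5p line was -0.63 with median centring, which also moved the median of all genes to -0.08, and -0.53 to -0.44 without single arrays. That of the miR-421 line was -0.50 to -0.25 without single arrays. Of all probes past the threshold in the miR-338-5p comparison, 1435 of 2476 were lower. This was 1053 of 1284 after median centring and 501 of 1093 from the software's own ratio. In the authors' deposited table, which is per gene name, 435 of 984 genes were lower. The difference between the lines passed for 0 of the 50 genes under every alternative run. The replicate block, with numbers 1 and 2 on 4 arrays, left 0 genes past the threshold in each comparison. The same 4 arrays without the block, an alternative chosen after seeing the data, left 0 and 7. Over all probes the block left 0 in each comparison, and the 4 arrays without it left 1 of 27501 and 1781 of 27491. Deviations of same-numbered arrays from their line means correlated at -0.14 and -0.21. With so few arrays sharing a number, this cannot settle whether the numbers pair the samples.

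Signs were followed for the genes given with values on every array; those that turned are given here, and none of the turned values passed the threshold. CHAF1A in the miR-421 line was 0.03 with the authors' deposited table. GINS2 there was -0.01 without the pool and up to 0.09 without another array, and -0.01 with the replicate block and on the same 4 arrays. MCM2 in the miR-338-5p line ranged from -0.20 to 0.02 without single arrays. ORC6 in that line was 0.01 without background correction, 0.03 with it subtracted or the software's ratio, and 0.04 with the authors' deposited table or without replicate 2, and -0.10 without replicate 3. With median centring RFC2 was -0.07 in the miR-338-5p line and TK1 0.27 in the miR-421 line. TK1 there was 0.05 without the pool and on the 4 arrays with or without the block, 0.03 without replicate 1 and -0.15 without replicate 2. RRM2 in the miR-421 line was 0.32 without replicate 1 and -0.41 without replicate 2. The causes were not tested.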
